A study of Danio rerio with 19 samples.

Results

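The genes ctgfb, s1pr3a, cyp1a, klf9 and cyp51 are 5 of the 31953 zebrafish genes measured by RNA sequencing in 19 libraries of sorted embryonic cells. They were chosen by their measured rise, since their levels stood higher in cells of embryos with heat-shock-driven Edn1 than in cells with heat-shock-driven Gal4 alone, so the values of that comparison describe the choice and are not evidence for it. Each name matched 1 row of the table. The remaining libraries show how the 5 genes vary where they were not chosen, what they do when edn1 is lost, and what other genes of their pathways do.

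Edn1 is a secreted peptide of the endothelin family. In the pharyngeal arches, the embryonic segments from which neural crest cells build the jaw and gill skeleton, it acts through endothelin receptors on neural crest cells and is needed for the ventral, or lower jaw, identity of those cells. The gene ctgfb encodes a secreted matricellular protein of the CCN family and is named ccn2b in the reference table of gene names, s1pr3a encodes a receptor for sphingosine 1-phosphate, and klf9 encodes a zinc finger transcription factor that glucocorticoids and thyroid hormone induce in other vertebrates. Both remaining genes encode cytochrome P450 enzymes: cyp1a oxidizes foreign compounds and is a standard target of the aryl hydrocarbon receptor, and cyp51 removes a methyl group from lanosterol in cholesterol synthesis.

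Sorting used fli1a:GFP, a reporter seen in vessels and arch crest cells, together with sox10:DsRed, a reporter of neural crest and otic cells. All libraries came from 36 hours after fertilization except where given, and the arch libraries of manipulated embryos were double positive. Heat-shocked embryos carried hspGal4 with UASEdn1 (hs_Edn1), hspGal4 with UASNICD (hs_NICD, the Notch intracellular domain), or hspGal4 alone (hs_Gal4), with 1 library each. In this system Gal4 is made from a heat-shock promoter, which is not limited to the cells that normally make Edn1, and the length and time of the heat shock are not given in the sources used here. A pair of libraries came from edn1-/- embryos, and 1 each from jag1b-/- embryos and their jag1b+/+ counterparts, all labelled as genotyped. Unmanipulated wild-type libraries held double-positive cells of all arch domains (all-arch, 3 libraries), cells sorted by a hand2 reporter with sox10 (hand2-sorted, 2) or a dlx5a reporter with sox10 (dlx5a-sorted, 1), cells with GFP alone (fli1a-only, 3, called mixed with vasculature in the labels) and cells with DsRed alone (sox10-only, 3, called mixed with ear and labelled 20, 28 and 36 hours, although the series description places their sort with the others). The study's title names regional gene expression in craniofacial development as its subject. Nothing in the labels says that replicates are from separate clutches, and a p-value here speaks to the spread between libraries alone, part of which can be technical.

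Levels are transcripts per 1000000 transcripts (TPM), a unit scaled by gene length and by library total, so the depth behind each value is unknown. The heat-shock label could be read in hspb1, a small heat-shock protein gene. Its level was 62.2 TPM in hs_Edn1, 33.1 in hs_NICD and 50.9 in hs_Gal4. The 7 arch libraries that were sorted by fli1a and sox10 without heat shock held 0.416 to 2.43 TPM of it. The label could not be read in hsp70l, hsp70.1, hsp70.2 or hsp70.3, whose levels in the heat-shocked libraries lay inside the range of those 7. Of 21 heat-shock genes at 1 TPM in hs_Edn1 or hs_Gal4, 8 stood higher in hs_Edn1 than in all 7. Among all 13450 genes at that level 1658 did. All 14 arch neural crest markers reached 1 TPM in every library, and their summed level was 2926 to 7006 TPM in the double-positive, hand2-sorted and dlx5a-sorted libraries, 1042 to 1533 in fli1a-only libraries and 489 to 744 in sox10-only libraries. All-arch replicate 2 stood apart from the other all-arch libraries, with 876 TPM of 14 pigment genes against 32.1 and 38.6, and 6711 TPM of 17 blood genes against 349 and 2341. Some results that rest on it are given with and without it, and others, such as correlations between genes, only with it. Bulk levels cannot tell fewer cells of a type apart from less RNA per cell.

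In hs_Edn1, ctgfb stood at 895 TPM, against 115 TPM in hs_Gal4, a ratio of 7.77. Its log2 difference of 2.95 was second only to that of edn1 itself (3.21, 20.9 TPM in hs_Edn1 against 1.37 in hs_Gal4). The edn1 value does not separate the transgene from the native gene.

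The gene cyp1a stood at 35.0 TPM in hs_Edn1, against 4.38 TPM in hs_Gal4, a ratio of 7.99 and the third largest log2 difference (2.74). Next came klf9, place 5, with 31.0 TPM in hs_Edn1 against 4.95 in hs_Gal4 (log2 difference 2.43). Close to it was s1pr3a, place 6, with 125 TPM in hs_Edn1 against 22.8 in hs_Gal4 (log2 difference 2.40). At place 10, cyp51 was the lowest of the 5 in both libraries, with 11.3 TPM in hs_Edn1 against 2.00 in hs_Gal4 (log2 difference 2.04). On the scale as deposited its difference was 0.79, below the threshold of 1 that counts a gene as higher, and those of the other 4 genes were 1.41 to 2.85.

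All differences of this kind are on the log2(TPM + 1) scale. A gene was counted as changed between single libraries when it differed by at least 1 on that scale and reached 10 TPM in the higher library. Of 5960 genes with 10 TPM in either library, 144 (2.42%) were higher in hs_Edn1 and 77 (1.29%) lower, and the 5 genes are inside the first count by construction. The first 10 places also held FO681361.1 and 3 uncharacterized si: genes, and cpn1 followed at place 11 with a log2 difference of 2.00. With 1 library in each group no difference has a replicate check. Blood markers moved between the same libraries: 17 of them summed to 540 TPM in hs_Edn1 and 4512 in hs_Gal4, with 12 of 17 at 1 TPM or more in hs_Edn1 and 16 of 17 in hs_Gal4 and none at 0. The 18 markers of endothelium summed to 19.1 TPM in hs_Edn1 and 30.5 in hs_Gal4. Of them, 7 and 8 reached 1 TPM, with lyve1b at 0 in hs_Gal4. Pigment genes summed to 196 and 148 (6 and 5 of 14 at 1 TPM or more), and epithelial genes to 3467 and 2676 (11 and 12 of 17). Mural and smooth muscle genes summed to 126 and 72.5, but fewer of the 13 reached 1 TPM in hs_Edn1 (3) than in hs_Gal4 (5). Among them acta2 and cnn1a were at 0 in hs_Edn1 and cnn1b in hs_Gal4. These sums include notch3, at 41.8 and 21.8 TPM, which is also on the list of Notch targets. The part of these markers in the differences was not tested.

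Set against all other libraries, the 5 genes differed in how far hs_Edn1 stood out. The level of ctgfb in hs_Edn1 was 6.07 times that of the next library, and cyp51 was 3.05 times its next library, sox10-only replicate 1. The gene klf9 was 1.65 times the next, and s1pr3a only 1.08 times, with all-arch replicate 2 next in line for both as it was for ctgfb. Unlike those 4 genes, cyp1a was not highest in hs_Edn1: that library took place 5 of 19, behind all 3 fli1a-only libraries and the jag1b mutant. The hs_Gal4 level of cyp1a, 4.38 TPM, lay below the lowest of the 4 unshocked wild-type arch libraries, 4.50 TPM, and the hs_Gal4 level of klf9, 4.95 TPM, lay below their lowest, 7.18 TPM. With the mutants included, 1 of the 7 unshocked arch libraries lay below hs_Gal4 for cyp1a and 2 for klf9. For 25.3% of all genes hs_Gal4 lay below all 7, and the share below the 4 was not counted. For ctgfb the hs_Gal4 level lay within the unshocked wild-type range of 38.2 to 147 TPM, for s1pr3a within 11.7 to 116, and for cyp51 within 1.61 to 2.89.

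**Figure D1:**
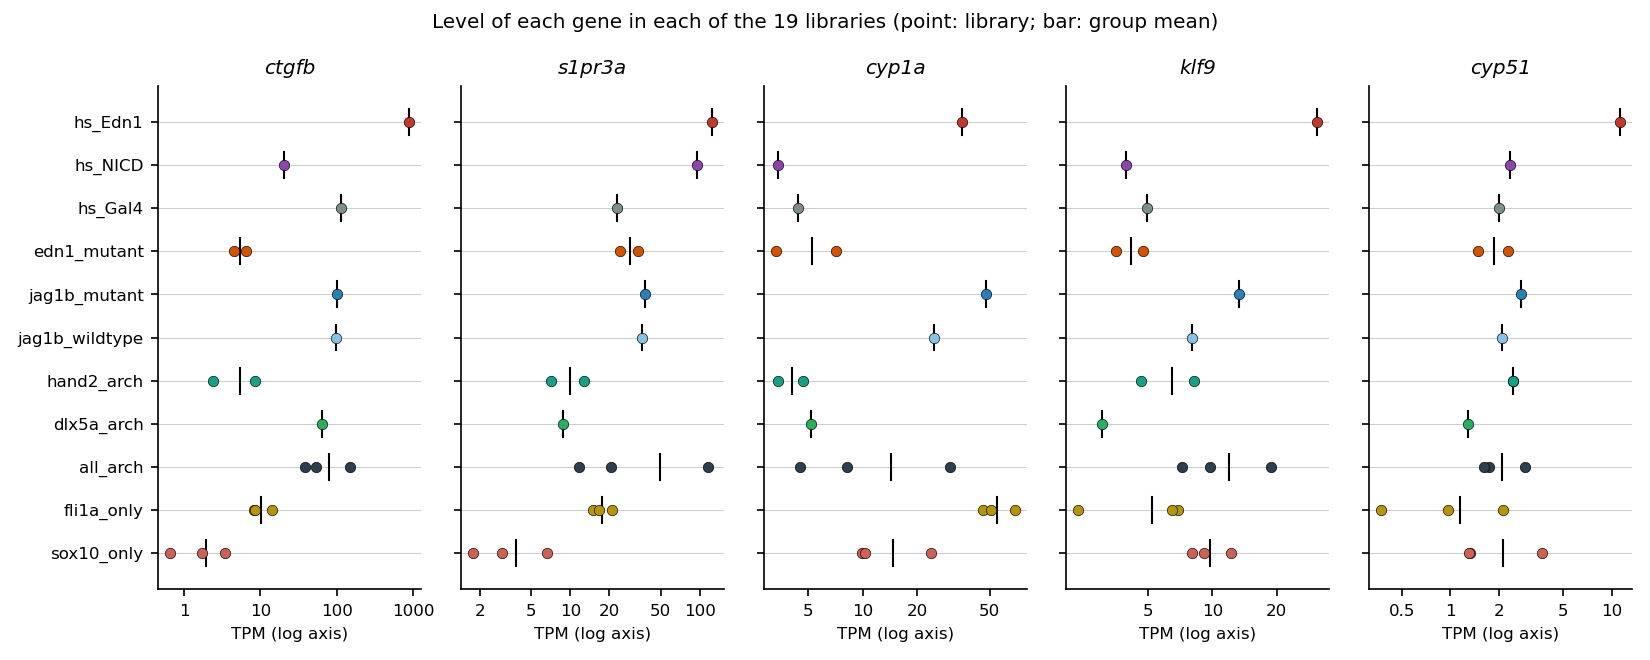
TPM on a log axis for ctgfb, s1pr3a, cyp1a, klf9 and cyp51 in the 19 libraries, 1 row for each group, with points for libraries and a bar at the group mean. The hs_Edn1 point is the highest for ctgfb, s1pr3a, klf9 and cyp51, while for cyp1a the 3 fli1a-only libraries and the jag1b mutant lie above its 35.0 TPM.

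Heat-shock NICD used the same hs_Gal4 library as its counterpart, so its differences are not independent of the values above, and they are given side by side with no comparison of the pair. The gene ctgfb stood at 20.4 TPM in hs_NICD, against 115 in hs_Gal4 (log2 difference -2.44), and counted among the 126 of 6037 genes that were lower (2.09%). The receptor gene s1pr3a stood at 96.3 TPM in hs_NICD, against 22.8 in hs_Gal4 (log2 difference 2.03), and was place 69 of the 304 genes that were higher (5.04%). The other 3 genes stayed under 10 TPM in both libraries, so they were not among the genes counted and no fall of theirs could have been. The gene cyp1a was at 3.41 TPM in hs_NICD against 4.38 in hs_Gal4, klf9 at 3.94 against 4.95, and cyp51 at 2.36 against 2.00. Between hs_NICD and hs_Gal4, 13 mural and smooth muscle markers summed to 263 and 72.5 TPM, with 6 and 5 of them at 1 TPM or more, cnn1b at 0 in both and desmb at 0 in hs_NICD. Those sums include notch3, at 100 and 21.8 TPM. Endothelial markers summed to 71.2 TPM in hs_NICD and 30.5 in hs_Gal4 (7 and 8 of 18 at 1 TPM or more, lyve1b at 0 in both), pigment markers to 421 and 148 (9 and 5 of 14) and blood markers to 1786 and 4512 (15 and 16 of 17). Their part in the hs_NICD differences was not tested. The reciprocal manipulation of the Notch pathway, loss of the ligand gene jag1b, moved none of the 5 past the threshold, where 11 of 5718 genes were higher (0.192%) and 40 lower (0.7%), or 0 and 10 on the scale as deposited. The gene ctgfb stood at 100.05 TPM in the jag1b mutant and 98.6 in its wild type, s1pr3a at 37.9 and 35.6, and cyp51 at 2.76 and 2.08. With both values under 10 TPM, cyp51 was not among the genes counted. Values were further apart for cyp1a, 47.7 TPM in the mutant and 24.7 in the wild type (log2 difference 0.92), and for klf9, 13.4 and 8.01 (0.68).

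Loss of edn1 was the comparison that bears on the same ligand with libraries the choice did not use. In edn1 mutant arches ctgfb stood at 4.53 and 6.37 TPM, against 53.6, 147 and 38.2 TPM in all-arch replicates 1 to 3. The groups did not overlap, and the log2 difference was -3.42 (SE 0.65). Across all genes this did not pass: limma, a linear model with moderated variances fitted to 13206 genes, gave an unadjusted p of 0.00127 and an adjusted p of 1.0, and the single gene it called, dlx4b, lower in the mutants, is 0.00757% of those tested. At an unadjusted p under 0.05 it found 368 of the 13206 genes, less than the share of 0.05 that this threshold gives with no difference at all. With the replicate number as a block it found 831 of 13292 genes, more than that share, and still called 1. The gene klf9 stood at 3.51 and 4.74 TPM in the mutants, against 9.70, 18.9 and 7.18 TPM in all-arch cells. Again every mutant value lay below every all-arch value, with a log2 difference of -1.24 (SE 0.44) and an adjusted p of 1.0 by limma. Lower in the mutants with no overlap were 684 of 13206 genes (5.18%), and 2 of the 5 genes, ctgfb and klf9, are among them.

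The other 3 genes overlapped between mutant and all-arch cells. Mutant libraries held 33.6 and 24.3 TPM of s1pr3a, against 20.5, 116 and 11.7 TPM in all-arch cells. Without all-arch replicate 2 its log2 difference turned from -0.10 to 0.84, and neither passed (limma, adjusted p = 1.0 for both). Levels of cyp1a were 3.30 and 7.13 TPM in the mutants, against 8.13, 30.4 and 4.50 TPM in all-arch cells, and those of cyp51 were 2.27 and 1.48 TPM, against 2.89, 1.74 and 1.61. None of the 5 differences passed under any of the 14 or 15 alternatives, and without all-arch replicate 2 the difference was -2.86 for ctgfb, -0.88 for klf9 and -0.26 for cyp1a. Adjusted p ranged from 0.455 to 1.0 over those alternatives by limma. Blood markers summed to 85.9 and 1453 TPM in the mutants and to 349, 6711 and 2341 in all-arch cells, with 3 of 17 at 0 in the first mutant library, and endothelial markers to 29.1 and 29.4 against 26.0 to 40.7. The 13 skeletal muscle markers summed to 426 and 189 TPM in the mutants, against 1802, 1439 and 3659 in all-arch cells, with no overlap. Of them, 11 reached 1 TPM in each mutant library and 12 in each all-arch library. The part of all these markers in the differences of the 5 genes was not tested. The edn1 level itself could not check the mutant label, with 0 and 0.246 TPM in the mutants and 0.136 to 0.549 TPM in all-arch cells.

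Cells sorted by hand2, a gene of the most ventral domain, held low levels of ctgfb without passing the test. They held 8.43 and 2.42 TPM, against 53.6, 147 and 38.2 TPM in all-arch cells, with no overlap and a log2 difference of -3.59 (SE 0.65). The difference just missed the threshold (limma, adjusted p = 0.0559), where 205 of 13206 genes passed (1.55%), 39 higher (0.295%) and 166 lower (1.26%), and it missed it under all 15 alternatives (0.0554 to 0.217 by limma). With the replicate block 384 genes passed. Without all-arch replicate 2 the difference of ctgfb was -3.03 (limma, adjusted p = 0.10). Lower without overlap were 2070 genes (15.7%). The 7 heart markers summed to 92.4 and 338 TPM in hand2-sorted cells, with 5 and 7 of them at 1 TPM or more, against 0.596 to 3.68 TPM in all-arch cells, where 0 or 1 reached 1 TPM and myh6 was at 0 in replicates 1 and 3. Their part in the ctgfb difference was not tested. No other of the 5 genes passed or separated: s1pr3a stood at 7.08 and 12.8 TPM in hand2-sorted cells, cyp1a at 3.41 and 4.68, klf9 at 4.64 and 8.22, and cyp51 at 2.45 and 2.44, each overlapping its all-arch values given above (limma, adjusted p from 0.621 to 0.878). In the dlx5a-sorted library ctgfb stood at 63.6 TPM, inside the all-arch range. That library held 8.72 TPM of s1pr3a, 3.04 of klf9, 1.28 of cyp51 and 5.20 of cyp1a. Set against the median gene of this comparison, the log2 difference from all-arch cells was -1.33 for s1pr3a and -1.19 for klf9. It was -0.03 for cyp51, -0.53 for cyp1a and 0.30 for ctgfb. Before the median gene was taken off, the differences of s1pr3a and klf9 were -1.71 and -1.57. Without all-arch replicate 2 they were -0.77 and -1.21, where the median gene lay at -0.32. With 1 library the spread had to be assumed to be that of the other groups, so a p here shows neither a difference nor its absence. Under that assumption limma called 52 genes (0.394%), 10 higher (0.0757%) and 42 lower (0.318%), none of them among the 5, with the median gene at -0.38.

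**Figure D2:**
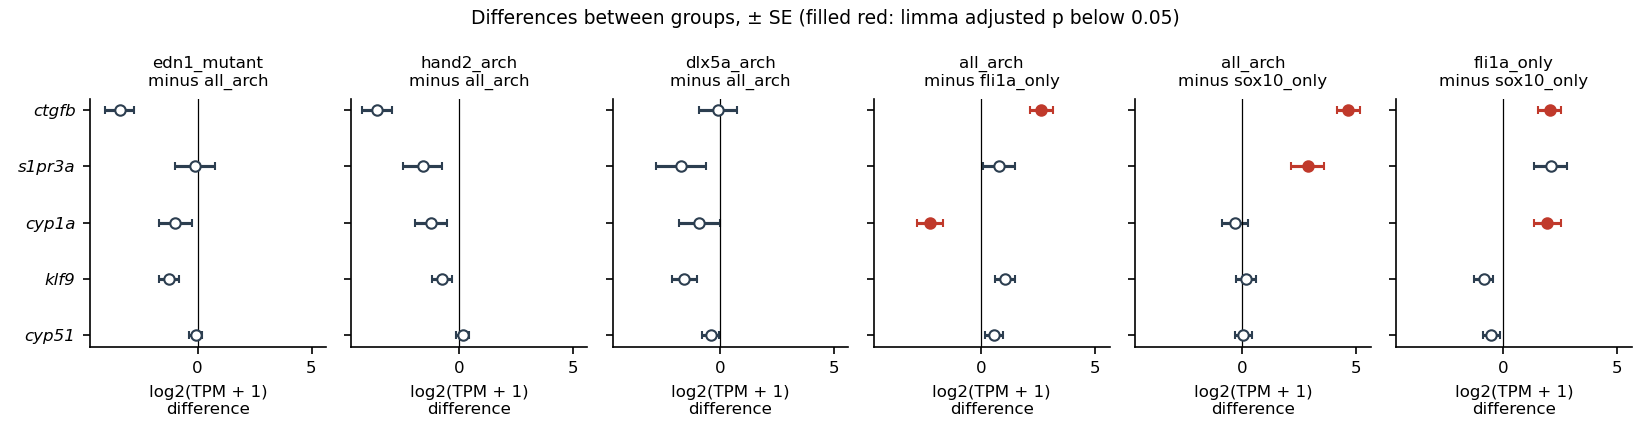
Log2(TPM + 1) differences with standard errors for the 5 genes in the 6 comparisons fitted with limma, filled red where the adjusted p is below 0.05. The gene ctgfb is red in the 3 comparisons of sorted populations and lies at -3.42 in edn1 mutants and -3.59 in hand2-sorted cells without passing, and cyp51 is red in none.

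Over the sorted wild-type populations ctgfb was highest in all-arch cells and cyp1a in fli1a-only cells. Of the 5 genes only these and s1pr3a passed in any of the 3 comparisons, which share their libraries. The gene ctgfb averaged 79.7 ± 59.1 TPM in all-arch, 10.3 ± 3.38 in fli1a-only and 1.93 ± 1.39 in sox10-only libraries (SD, n = 3 each). Single libraries were 53.6, 147 and 38.2 TPM, then 14.2, 8.21 and 8.46, then 1.73, 3.40 and 0.653. All-arch cells were higher than fli1a-only cells by log2 2.64 (SE 0.51, limma, adjusted p = 0.0091), in a comparison that called 1006 of 14270 genes (7.05%), 594 higher (4.16%) and 412 lower (2.89%). The median gene there lay at 0.68, so ctgfb stood 1.96 above it. Median-of-ratios rescaling (adjusted p = 0.0732), quantile normalization (0.0683), no filter (0.0543) and leaving out fli1a-only replicate 2 (0.0555) each lost the call, and 12 of 16 alternatives kept the call by limma, with adjusted p from 1.04e-05 to 0.0732. Against sox10-only cells ctgfb was higher in all-arch cells by 4.66 (SE 0.51, limma, adjusted p = 4.93e-05) and kept its call under all 17 alternatives, with a difference of 4.1 when all-arch replicate 2 was left out (and of 2.08 against fli1a-only cells, limma, adjusted p = 0.0325), with 485 genes called higher (3.4%) and 1430 lower (10%). Markers of other cell types moved with that comparison. The 14 pigment markers summed to 32.1 to 876 TPM in all-arch cells, with 5 to 7 at 1 TPM or more and oca2 at 0 in replicate 1, against 11096 to 31563 in sox10-only cells, with 12 to 14. Ear markers summed to 17.4 to 23.1 TPM in all-arch cells (2 to 5 of 10), against 118 to 475 in sox10-only cells (8 or 9), and neuron markers to 281 to 525 (9 or 10 of 13), against 1549 to 2086 (12). Their part in the differences of ctgfb and s1pr3a from sox10-only cells was not tested. Fli1a-only cells also exceeded sox10-only cells by 2.02 (limma, adjusted p = 0.0141), a call lost without sox10-only replicate 3 (0.0603) and kept in 14 of 17 alternatives (0.000114 to 0.11). In that comparison 580 genes were called higher (4.06%) and 3483 lower (24.4%), with the median gene at -0.78.

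These whole-table counts rest on few libraries and on the scaling. With the replicate number as a block, limma called 7232 genes between all-arch and fli1a-only cells, 2935 between all-arch and sox10-only cells and 8548 between fli1a-only and sox10-only cells. The count between all-arch and fli1a-only cells was 372 when all-arch replicate 3 was left out, 435 with replicate 2 left out and 4742 with fli1a-only replicate 3 left out. Median-of-ratios rescaling turned its split to 339 higher and 983 lower and quantile normalization to 603 and 802, while the values as deposited gave 1537 and 175. Between all-arch and sox10-only cells those scalings gave 1155 higher and 1557 lower, and 1324 and 1494, and between fli1a-only and sox10-only cells 1349 and 1094, and 1288 and 1373.

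The enzyme gene cyp1a averaged 14.3 ± 14.0 TPM in all-arch, 55.0 ± 12.1 in fli1a-only and 14.7 ± 7.97 in sox10-only libraries (SD, n = 3 each). Its fli1a-only libraries, at 45.7, 68.7 and 50.7 TPM, lay above all others but the jag1b mutant, and its all-arch (8.13, 30.4 and 4.50) and sox10-only libraries (9.85, 23.9 and 10.3) overlapped. All-arch cells were lower than fli1a-only cells by log2 -2.25 (SE 0.58, limma, adjusted p = 0.0423), and fli1a-only cells higher than sox10-only cells by 1.93 (SE 0.58, limma, adjusted p = 0.0318). The first call was lost when all-arch replicate 1 or 3, fli1a-only replicate 1 or 2, or sox10-only replicate 3 was left out, with adjusted p from 0.0507 to 0.149, and with no filter on low values, and was kept by 10 of 16 alternatives by limma (4.18e-05 to 0.149). The second was lost without fli1a-only replicate 1 or 2 or sox10-only replicate 1 or 3 (limma, adjusted p from 0.0521 to 0.113) and with no filter on low values (0.0641), and was kept by 12 of 17 alternatives (0.000104 to 0.113). Markers moved with this order: 18 endothelial genes summed to 26.0 to 40.7 TPM in all-arch cells, against 472 to 1876 TPM in fli1a-only cells, where all 18 reached 1 TPM, and 17 blood genes to 349 to 6711 TPM in all-arch cells, against 117034 to 315308 in fli1a-only cells. Their part in the cyp1a difference was not tested. With all-arch replicate 2 left out, all-arch cells differed from fli1a-only cells by -2.96 in cyp1a (limma, adjusted p = 0.00282).

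The receptor gene s1pr3a averaged 49.3 ± 57.6 TPM in all-arch cells, a spread set by replicate 2 (116 TPM, against 20.5 and 11.7), then 17.6 ± 3.22 in fli1a-only (14.9, 21.2 and 16.7) and 3.78 ± 2.53 in sox10-only libraries (1.76, 2.96 and 6.63) (SD, n = 3 each). All-arch and fli1a-only cells overlapped, and their log2 difference of 0.79 turned to -0.15 without all-arch replicate 2, with neither passing (limma, adjusted p = 0.402 and 0.844). With all libraries the median gene of that comparison lay at 0.68, so s1pr3a stood 0.11 above it. The sox10-only levels rose in the order of their labelled stages (20, 28 and 36 hours), while all-arch cells were labelled 36 hours. Population and stage can therefore not be fully told apart here. All-arch cells exceeded sox10-only cells by 2.86 (SE 0.72, limma, adjusted p = 0.0219). With the replicate number as a block this did not pass (limma, adjusted p = 0.0654), nor without sox10-only replicate 1 (0.0902) or 2 (0.0804), while without all-arch replicate 2 the difference was 1.92 and passed (0.0187). In all, 11 of 17 alternatives kept it by limma, with adjusted p from 0.00368 to 0.41. Fli1a-only cells stood above sox10-only cells without passing (log2 2.08, limma, adjusted p = 0.0523), and passed without all-arch replicate 2 (0.00447) or 3 (0.0289).

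Neither klf9 nor cyp51 passed between the populations in the fit without a block. The gene klf9 averaged 11.9 ± 6.14 TPM in all-arch, 5.22 ± 2.5 in fli1a-only and 9.79 ± 2.15 in sox10-only libraries (SD, n = 3 each). Single libraries held 7.18, 9.70 and 18.9 TPM in all-arch and 2.35, 6.43 and 6.89 in fli1a-only cells. Its log2 difference of 1.05 between these groups missed the threshold (SE 0.44, limma, adjusted p = 0.0959) and passed with the replicate block (adjusted p = 0.0377), a setting that called 7232 of 14270 genes there. The median gene of that comparison lay at 0.68, so klf9 stood only 0.37 above it. The gene cyp51 averaged 2.08 ± 0.709 TPM in all-arch, 1.15 ± 0.890 in fli1a-only and 2.11 ± 1.37 in sox10-only libraries (SD, n = 3 each), all overlapping (limma, adjusted p from 0.253 to 0.979). Outside hs_Edn1, cyp51 ranged from 0.371 to 3.70 TPM over all 18 libraries.

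The pathways of the 5 genes were read next, from lists of related genes, first those of the secreted and receptor genes. Each list holds at least 1 gene chosen for its rise in hs_Edn1 or was chosen with that comparison known, so counts that include the 5 genes partly restate the choice. A second count was therefore added after seeing the data, without the 5 genes and with a minimum set on the mean of the 17 libraries other than hs_Edn1 and hs_Gal4. By it 101 of 6104 genes at 10 TPM were higher in hs_Edn1 (1.65%), and 260 of 13929 at 1 TPM (1.87%). Of 8 CCN family genes with a row, 4 reached 1 TPM in hs_Edn1 or hs_Gal4. The paralogue ctgfa stood at 807 TPM in hs_Edn1, against 344 in hs_Gal4 (log2 difference 1.23), and cyr61, another matricellular gene, at 852 against 542 (0.65). Reads of ctgfa and ctgfb may be split between the copies, which was not tested, so their single values are uncertain. In fli1a-only cells ctgfa stood at 522 to 789 TPM and ctgfb at 8.21 to 14.2. In sox10-only cells ctgfa stood at 497 to 1432 TPM and ctgfb at 0.653 to 3.40. CCN genes are also read as targets of the transcriptional co-activator Yap. Of 9 measured genes at 10 TPM among Yap and Tead targets and regulators, 3 were higher, where 2.42% of all genes were: ctgfb, ctgfa and amotl2b (41.7 TPM in hs_Edn1 against 17.1 in hs_Gal4). Without ctgfb and by the second count 2 of 8 were higher, with a list median of 0.56 where all genes had 0.19. The co-activator gene yap1 itself stood at 55.1 TPM in hs_Edn1 and 39.7 in hs_Gal4 (0.46).

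Among 10 genes of sphingosine 1-phosphate signalling, 3 reached 10 TPM in hs_Edn1 or hs_Gal4, and s1pr3a alone passed the threshold. Its relatives s1pr1 (429 TPM in hs_Edn1 against 225 in hs_Gal4, log2 difference 0.93) and s1pr5a (98.3 against 54.6, 0.84) came close to it. In hs_NICD, against the same control, all 4 genes of the list at 10 TPM were higher, where 5.04% of all genes were and the endothelial and mural markers given above stood higher too, s1pr1 at 1169 TPM and s1pr5a at 305 TPM, with s1pr2 at 13.0 and s1pr3a at 96.3. Of the 4, s1pr2 reached 10 TPM in hs_NICD and not in hs_Gal4 (5.76 TPM), so its rise brought it into the count. At 1 TPM 4 of 7 genes of the list were higher in hs_NICD, where 4.84% of all genes were. The kinase gene sphk2, which makes the ligand, stood at 7.16 TPM in hs_Edn1 and 4.90 in hs_Gal4.

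Of 16 genes of the aryl hydrocarbon receptor pathway, 5 reached 10 TPM and 2 were higher, where 2.42% of all genes were: cyp1a and its relative cyp1c1 (149 TPM in hs_Edn1 against 40.0 in hs_Gal4, log2 difference 1.87). The 5 include cyp1a (35.0 against 4.38) and cyp1c2 (11.9 against 5.73), which reached 10 TPM in hs_Edn1 and not in hs_Gal4. By the second count, without cyp1a, 1 of 4 was higher, cyp1c1, and 2 of 4 lay above 0 (74.6% of all genes). The list median was 0.096 where all genes had 0.19. For cyp1c1 the hs_Gal4 level lay below the 7 unshocked arch libraries (45.1 to 205 TPM) and the hs_Edn1 level inside their range. The same place of hs_Gal4, below all 7, was found for 4 of the 9 list genes at 1 TPM (44.4%) and for 25.3% of all genes, and in 0 of the 9 was hs_Edn1 the highest of the 19 libraries, where it was so for 4.09% of all genes. At so low a share the 0 among 9 genes carries no information on the list. Another target, cyp1b1, stood at 0.262 TPM in hs_Edn1 and 0.398 in hs_Gal4, the receptor gene ahr2 at 5.23 and 3.80, and tiparp, also a target, at 13.9 and 10.8. In hs_NICD cyp1c1 stood at 89.9 TPM and cyp1c2 at 15.5, both past the threshold, while cyp1a was under 10 TPM in both libraries and not counted. For cyp1c2, 10 TPM was reached in hs_NICD and not in hs_Gal4, so its rise brought it into the count. In the fit of sorted populations, cyp1a, cyp1b1, cyp1c1 and cyp1c2 were called higher and gstp1 lower in fli1a-only than in sox10-only cells, of 11 list genes tested, where 4.06% of all genes were called higher and 24.4% lower. In all-arch cells cyp1a and cyp1b1 were called lower than in fli1a-only cells, where 2.89% of all genes were. The levels of cyp1b1 there were 0.147 to 0.536 TPM in all-arch cells, against 13.2 to 139 in fli1a-only cells, while those of cyp1c1 were 51.8 to 205 and 107 to 176.

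Of 8 glucocorticoid-responsive genes at 10 TPM, klf9 alone was higher. It reached 10 TPM in hs_Edn1 and not in hs_Gal4 (31.0 against 4.95), so its rise brought it into the count. By the second count, without klf9, 0 of 6 were higher. The stress-induced gene tsc22d3 stood at 40.6 TPM in hs_Edn1 and 66.5 in hs_Gal4, per1b at 16.4 and 11.2, and fkbp5, a standard glucocorticoid target, at 1.63 and 1.59. Mt2, a metallothionein gene that stayed under 10 TPM, was at 6.78 TPM in hs_Edn1 and 2.65 in hs_Gal4. Thyroid hormone receptors and deiodinases were low, with dio1 at 4.89 and 4.56 TPM the highest of them, and no gene of that list but klf9 was higher.

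Cholesterol synthesis, the pathway of cyp51, was mostly expressed below 10 TPM. At 10 TPM 3 of 8 genes were higher, cyp51, fdps and tm7sf2. All 3 reached 10 TPM in hs_Edn1 and not in hs_Gal4, so their rise brought them into the count. By the second count 0 of 5 were higher. At 1 TPM, of 22 genes that reached it in hs_Edn1 or hs_Gal4, 7 were higher by at least 1 (2.32% of all 13450 genes) and 0 lower (2.36%), but cyp51 was chosen for its rise, and hmgcra and sqlea reached 1 TPM in hs_Edn1 and not in hs_Gal4. By the second count at 1 TPM, without cyp51, 4 of 18 were higher (22.2%, where 1.87% of all genes were), fdps, hmgcs1, msmo1 and tm7sf2. The 7 genes span the pathway. At its start were hmgcs1 (9.49 TPM in hs_Edn1 against 3.04 in hs_Gal4) and hmgcra (4.32 against 0.530), a copy of the reductase that sets its rate. The other copy, hmgcrb, had the higher level and was not past the threshold (16.7 against 11.3, log2 difference 0.52). In the middle were fdps (17.2 against 7.53) and sqlea (3.92 against 0.264). Beside cyp51 at the sterol steps were tm7sf2 (15.8 against 4.53) and msmo1 (5.49 against 1.31). Of the 22, 21 had a difference above 0 (73.0% of all genes), and by the second count 17 of 18 did (71.5% of all genes), the exception being dhcr7, the last reductase (5.27 TPM in hs_Edn1, 5.44 in hs_Gal4). The median of the 18 was 0.50, and that of all genes 0.17. In hs_NICD, with the same control, 0 of 19 genes of the list were higher, where 4.84% of all genes were, mvdb alone was lower (3.45%), and 12 of 19 lay above 0 (65.7%). Between the jag1b mutant and its wild type 0 of 19 were higher (0.692% of all genes) or lower (1.35%), and 11 lay above 0 (50.5%).

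**Figure D3:**
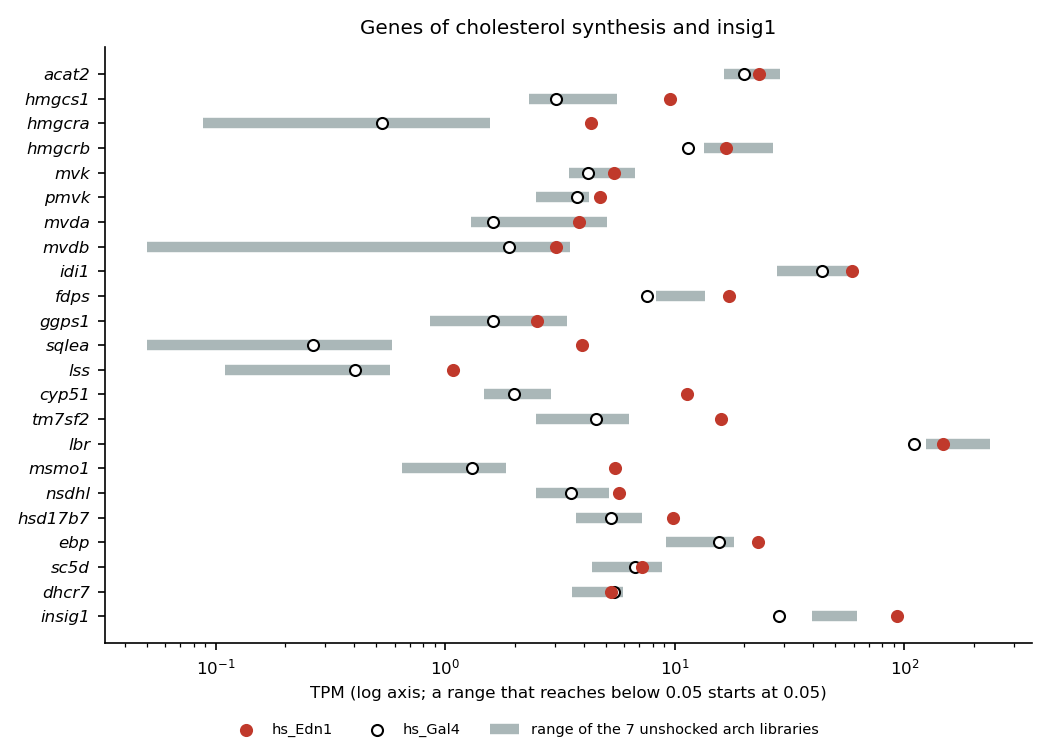
TPM on a log axis of the 22 cholesterol synthesis genes at 1 TPM or more, in pathway order, and of insig1, in hs_Edn1 (red) and hs_Gal4 (open), with the range of 7 unshocked arch libraries as a grey bar. The hs_Edn1 points of 12 of the 22 genes, cyp51 at 11.3 TPM among them, lie right of the bar, while most hs_Gal4 points lie inside it. Among all 13450 genes at that level, hs_Edn1 stood above the 7 libraries for 1658. The 12 include cyp51, chosen for its rise, and hmgcra, sqlea and lss, which reached 1 TPM in hs_Edn1 and not in hs_Gal4.

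By the second count hs_Edn1 was the highest of all 19 libraries in 8 of 18 genes of the list (44.4%), and in 430 of 13929 genes in all (3.09%). The same count over the 22 genes, cyp51 and those that reached 1 TPM only in hs_Edn1 included, was 12. The hs_Gal4 level of 3 of the 22 (13.6%) lay below all 7 unshocked arch libraries, where 25.3% of all genes did. Among the 3 was fdps, with 7.53 TPM against 8.30 to 13.6. Blood and other markers that differed between hs_Edn1 and hs_Gal4 are given above, and their part in these counts was not tested. The gene insig1, which encodes the sterol-regulated anchor of the pathway's activator in the endoplasmic reticulum, stood at 93.2 TPM in hs_Edn1, against 28.5 in hs_Gal4 (log2 difference 1.67), and was also highest in hs_Edn1. Its hs_Gal4 level lay below the 7 unshocked arch libraries, which held 39.5 to 62.2 TPM. Other sterol regulators did not reach the threshold: ldlra was at 1.74 TPM in hs_Edn1 and 0.684 in hs_Gal4, and srebf2, the activator, at 1.45 and 1.1. In edn1 mutants, hand2-sorted and dlx5a-sorted cells 0 of 18 tested genes of the list were called against all-arch cells, where few genes were called at all (0.00757%, 1.55% and 0.394%), so the 0 carries no information on the list. In the fit of sorted populations mvk alone of 17 was called, lower in fli1a-only than in sox10-only cells, where 28.5% of all genes were called.

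The lists that Edn1, Notch and heat shock are known to act on were set beside these, to be read against 2.42% of all genes higher in hs_Edn1, and 5.04% higher and 2.09% lower in hs_NICD. Of 10 ventral Edn1-dependent genes at 10 TPM, dlx4a and dlx4b were higher in hs_Edn1 than in hs_Gal4, with a list median of 0.59 where all genes had 0.22, while in hs_NICD 8 of 9 were lower. The count in hs_Edn1 took in dlx6a, which reached 10 TPM in hs_Edn1 and not in hs_Gal4 (11.1 against 5.97). Of the 8 lower in hs_NICD, dlx4a and dlx4b reached 10 TPM in hs_Gal4 and not in hs_NICD (3.38 and 3.47). By the second count 2 of 10 were higher in hs_Edn1, where 1.65% of all genes were, and the list median was 0.36 where all genes had 0.19. Notch targets included 3 of 13 that were higher in hs_Edn1, her2, hey1 and nrarpb, and 11 of 14 that were higher in hs_NICD. Of the 11, notch1a reached 10 TPM in hs_NICD and not in hs_Gal4 (40.9 against 4.30), so its rise brought it into the count. At 1 TPM 11 of 15 were higher in hs_NICD, where 4.84% of all genes were. Few heat-shock genes were past the threshold between the heat-shocked libraries: bag3 alone of 16 passed in hs_Edn1, with a list median of 0.17, and 0 of 16 in hs_NICD. Immediate-early genes, which cell dissociation can also induce, had 6 of 27 higher in hs_Edn1, fosl1a, klf2b, klf6a, socs3a, zfp36l1a and zfp36l1b, and 11 of 28 higher in hs_NICD. Among those 11, egr3 reached 10 TPM in hs_NICD and not in hs_Gal4 (29.2 against 8.64). The part of the immediate-early genes in the level of the 5 genes was not tested.

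**Figure D4:**
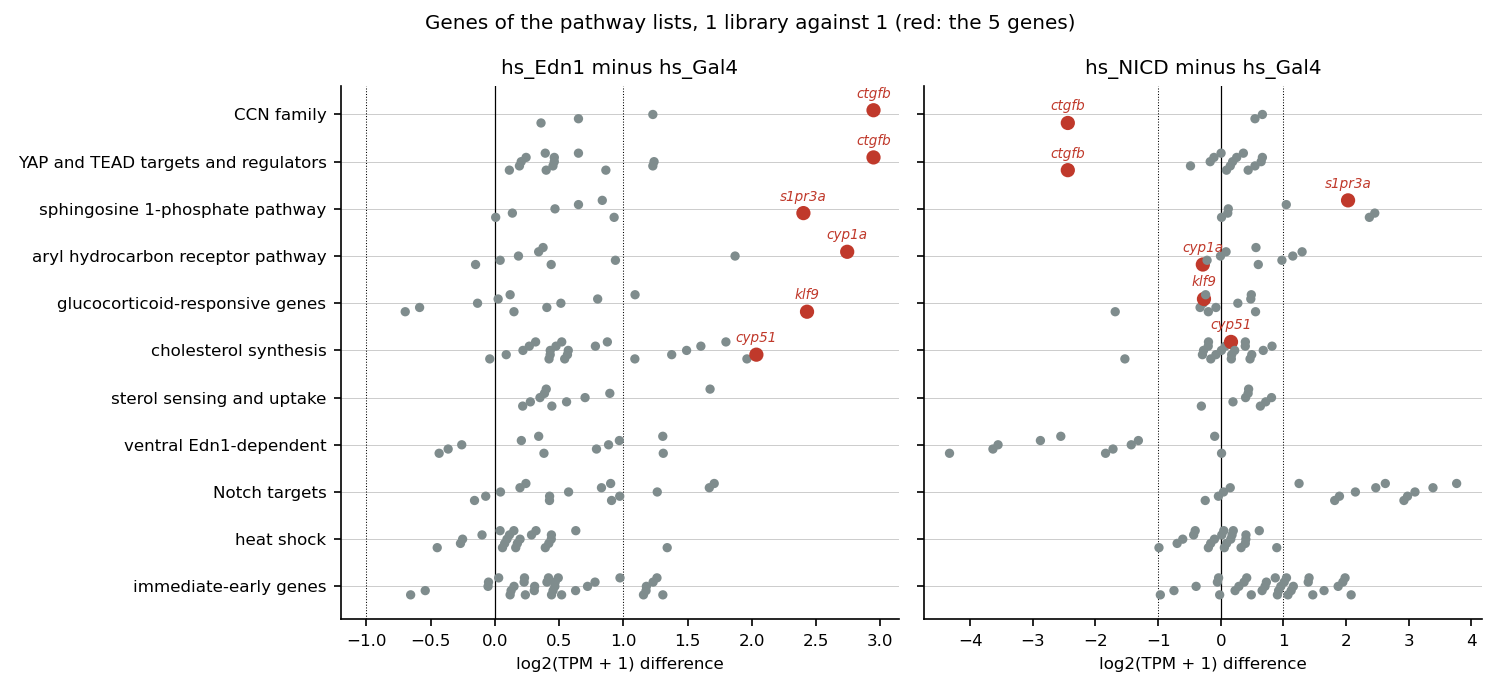
Log2(TPM + 1) differences of the genes of 11 lists at 1 TPM or more, for hs_Edn1 (left) and hs_NICD (right), each against the same hs_Gal4 library; red marks ctgfb, s1pr3a, cyp1a, klf9 and cyp51, and dotted lines stand at -1 and 1. Cholesterol synthesis lies mostly right of 0 on the left, cyp51 at 2.04, and ctgfb lies at 2.95 on the left and -2.44 on the right.

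Across the 17 libraries other than hs_Edn1 and hs_Gal4, the 5 genes did not share 1 pattern. Pearson's r on the log2 scale was 0.61 between ctgfb and s1pr3a and between -0.41 and 0.39 for the other 9 pairs, as a description over libraries that share groups and replicate numbers. All-arch replicate 2 is among the 17, and no r was computed without it. The genes whose levels were most like each of them, of 6107 with a mean of at least 10 TPM, differed in kind. For ctgfb they were spon2b, igf2a and irx7 (r from 0.80 to 0.81), and none of these was past the threshold in hs_Edn1. Among those nearest to s1pr3a were slc25a32a (0.87) and zfp36l1b (0.86), and slc25a32a (33.7 TPM in hs_Edn1 against 14.4 in hs_Gal4) and zfp36l1b (1198 against 483) were also higher in hs_Edn1. For cyp1a they were blvrb (r = 0.79), an enzyme gene of haem breakdown, FOXL2 (0.79) and the globin gene hbbe1.1 (0.78). The first and the last were lower in hs_Edn1, blvrb at 2.87 TPM against 13.5 in hs_Gal4 and hbbe1.1 at 327 against 2293, and FOXL2 was not past the threshold (7.32 against 8.54). Closest to klf9 were the AP-1 gene fosl1a (r = 0.74), which was higher in hs_Edn1 (137 TPM against 60.1), and scpep1 and kras (0.73 each), which were not past the threshold (67.5 against 41.5, and 10.4 against 9.08). For cyp51, which is low, those closest included si:dkey-23i12.5 (0.91) and slc25a5 (0.90), neither of them past the threshold.

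All-arch replicate 2 was the highest all-arch library for 4 of the 5 genes. It held 3.21 times the mean of the other all-arch libraries for ctgfb, 7.16 times for s1pr3a, 4.80 times for cyp1a and 2.23 times for klf9, and 0.772 times for cyp51. Of the 144 genes higher in hs_Edn1, 48 (33.3%) were also higher by at least log2 1 in that library than in the mean of the other all-arch libraries. Of the 77 genes lower in hs_Edn1, 30 (39.0%) were higher there by that amount, among them the globin genes hbae3 and hbbe3, and of all 5960 genes 299 were (5.02%). The part of this library's blood and pigment markers in the shift was not tested.

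**Figure D5:**
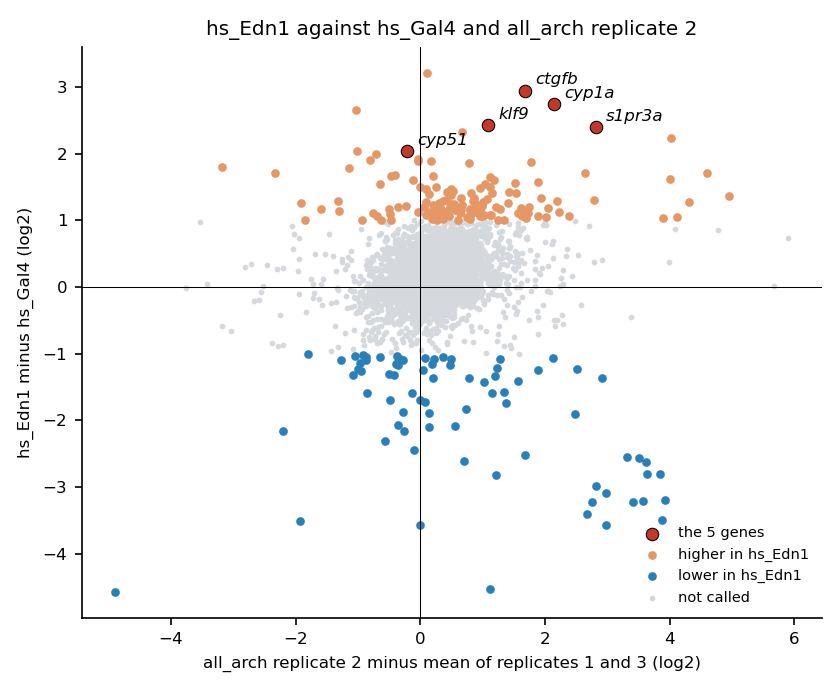
Log2 difference of hs_Edn1 from hs_Gal4 (vertical) against that of all-arch replicate 2 from the mean of replicates 1 and 3 (horizontal) for 5960 genes, with orange for genes higher and blue for genes lower in hs_Edn1. The genes s1pr3a, cyp1a, ctgfb and klf9 lie at the upper right, and cyp51 lies just left of 0.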

How the data were processed

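Per the labels' protocols, sorted cells were lysed, their RNA was purified on RNeasy Micro columns and SMARTer chemistry gave the cDNA. GRCz10, TopHat2 and Partek are named, without versions, in the submitters' processing notes. The authors deposited TPM for 31953 genes in 19 libraries. Each deposited column summed to about 93168.2, and all values were multiplied by 10.7333 to reach 1000000. TPM keeps no depth, so no counting interval is given.

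Groups follow the labels. The test was limma 3.58.1 (R 4.3.3) on log2(TPM + 1) values (trend and robust empirical Bayes, 2-sided, Benjamini-Hochberg adjustment over all genes, threshold 0.05) on genes with a mean of at least 1 TPM. One fit took the 3 sorted populations with 3 libraries each (14270 genes) and another all-arch, hand2-sorted, dlx5a-sorted and edn1 mutant libraries (13206). Fold changes on this scale understate changes of low genes. Single libraries were compared without a test, by a log2 difference of at least 1 with at least 10 TPM in the higher one. The scripts were tested on simulated data. Tables and figures used Python 3.11.15, pandas 2.3.3, numpy 2.4.6 and matplotlib 3.10.9.

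The members and gene lists were chosen with earlier results of these data known. Named genes are the 5 members, edn1, genes of the 13 pathway lists that were called or whose value was needed, and for each member the 3 genes with the highest Pearson correlation, of which some are not reported here. Dlx4b, FO681361.1, cpn1, hbae3 and hbbe3 were named after their values were seen. Libraries of different groups that share a replicate number in the labels also resembled each other once group means were removed. The correlation was 0.316 to 0.739 in the first fit and 0.335 to 0.634 in the second. The main fits nevertheless treated libraries as unpaired, and the replicate number entered only as a block among the alternatives. In sox10-only libraries that number also stands for the labelled stage (20, 28 and 36 hours), so the block cannot tell pairing from stage there. Alternatives were other pseudocounts, scalings and filters, a replicate block and leaving out each library. No genome of the authors' build was used here, so no coordinates or sequences are given.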

Additional observations from a re-analysis of the deposited data

How the results depend on the processing

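Of the recomputed values for the 5 genes, 459 kept their direction and their side of the threshold or moved little, 24 lost a call, 6 gained one, 17 changed sign and 4 untested ones moved. Depth is unknown, which limits low values such as those of cyp51, and single libraries have no replicate check.

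Of the calls of the 5 genes by limma, only that of ctgfb between all-arch and sox10-only cells was kept under all 17 alternatives. The number of genes called by limma also depended on the setting. Between all-arch and fli1a-only cells it was 1712 on the scale as deposited, 510 with no filter on low values and 7232 with the replicate block, against 1006. Between all-arch and sox10-only cells it was 636 as deposited, 3035 with no filter, 2935 with the replicate block and 1228 with the 36 hour sox10-only library alone, against 1915. Between fli1a-only and sox10-only cells it was 2443 by median-of-ratios rescaling, 2185 as deposited, 2661 by quantile normalization, 8548 with the replicate block and 1621 with the 36 hour library alone, against 4063. Leaving out 1 library gave 372 to 4742, 1456 to 2348 and 1806 to 6531 genes in these 3 comparisons.

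In edn1 mutants the count was 3 by median-of-ratios rescaling, 2 by quantile normalization and 2 with no filter, and 0 to 4 with a library left out, against 1. For hand2-sorted cells it was 84 as deposited, 95 with no filter, 384 with the replicate block and 35 to 213 with a library left out, against 205. For the dlx5a-sorted library it was 8 as deposited, 251 with no filter and 0 to 33 with a library left out, against 52. Between hs_Edn1 and hs_Gal4 a pseudocount of 5 counted 135 genes, the scale as deposited 38 and a minimum of 1 TPM 630. Those settings gave 285, 89 and 1135 genes between hs_NICD and hs_Gal4, and 30, 10 and 269 between the jag1b mutant and its wild type.

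The differences that changed sign were all uncalled. With the 36 hour sox10-only library alone, all-arch cells differed by 0.043 for cyp1a and -0.13 for klf9. In the dlx5a-sorted library ctgfb was at 0.42 by median-of-ratios rescaling and 0.089 by quantile normalization, and cyp51 at 0.039 by the second. Leaving out 1 library gave -0.15 to 1.44 for s1pr3a between all-arch and fli1a-only cells. Between all-arch and sox10-only cells it gave -1.03 to 0.22 for cyp1a, -0.19 to 0.45 for klf9 and -0.13 to 0.39 for cyp51. In edn1 mutants it gave -0.76 to 0.84 for s1pr3a and -0.29 to 0.11 for cyp51, and in the dlx5a-sorted library -0.48 to 0.48 for ctgfb. The cause was not tested in any of these. The replicate block changed the calls of klf9 between all-arch and fli1a-only cells (limma, adjusted p = 0.0377) and of s1pr3a between all-arch and sox10-only cells (0.0654), and no other call of the 5 genes.

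For cyp51 the difference of hs_Edn1 from hs_Gal4 was 2.44 with a pseudocount of 0.1, 1.22 with 5 and 0.79 as deposited, and that of klf9 was 1.41 as deposited.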
